A study of Mus musculus with 8 samples.

Results

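The 10 genes described here build and restrain the signal of transforming growth factor beta (TGF-beta): the ligand Tgfb1 and its anchor Nrros, the receptors Tgfbr1 and Tgfbr2, the signal carriers Smad2, Smad3 and Smad4, and the inhibitors Smad7, Ski and Skil. Members were the regions of the deposited H3K27ac table whose assigned gene name equals one of these symbols, which gave 365 regions of 129304 and 10 genes of 18707. H3K27ac, an acetylation of the tail of histone H3, marks active promoters and enhancers, and was measured by chromatin immunoprecipitation and sequencing in nuclei sorted from frozen hemibrains of C57BL/6 mice aged 2 years. The sort took nuclei positive for PU.1, a myeloid transcription factor that in brain is found mainly in microglia, and negative for the oligodendrocyte factor OLIG2 and the neuronal protein NEUN. The groups were WT and GrnKO mice, the latter lacking the lysosomal protein progranulin. The labels name no allele beyond GrnKO and no treatment. Each genotype had 2 H3K27ac libraries and 2 input libraries of unselected chromatin, 8 in all, and each replicate pooled nuclei of 2 mice.

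TGF-beta is secreted in a latent form and released from its carrier at the cell surface, in microglia from a complex with the protein made by Nrros. The free ligand binds TGFBR2, which recruits and activates TGFBR1, and this kinase phosphorylates SMAD2 and SMAD3, which join SMAD4 and enter the nucleus to act on target genes. Adult microglia depend on this signal to keep their homeostatic gene programme.

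Regions came from a joined set of open-chromatin (ATAC-seq) peaks, per the table's headers and name. All values below are scaled tags in a region of 800 bp: mapped fragments per 10000000 in the library, as the authors deposited them, divided by a TMM factor (trimmed mean of M-values, an adjustment for composition) unless the authors' scaling is named. A change is the log2 ratio of GrnKO to WT with its standard error (SE), on the log2(value + 1) scale, and a region or gene passed the test at a limma adjusted p under 0.05 over all regions or genes tested. The H3K27ac libraries held 15491642.5 to 20030832 tags and the inputs 4078179 to 14415969. WT replicate 1 stood apart: 49.4% of its tags lay in regions, against 63.3%, 64.8% and 65.7% in the other H3K27ac libraries, and calls of named regions and genes that change without it are given with that value. The Grn promoter region (chr11:102429291-102430091) was at 708 and 553 in WT replicates 1 and 2 and at 6.79 and 6.00 in GrnKO replicates 1 and 2, which checks the labels. Values of single libraries are given in that order throughout.

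Markers of the sorted cell type and of other brain cells also moved with genotype. Per region, the 8 microglial markers held 206 to 227 scaled tags in WT and 170.3 to 181 in GrnKO libraries, and 5 of the 8 gene sums fell with TMM and 0 with the authors' scaling. Lymphocyte markers held 15.0 to 15.9 and 33.5 to 42.6 (Ms4a1, which encodes a B cell antigen, rose, 1 of 2 tested), and endothelial and mural markers 16.1 to 17.1 and 24.1 to 25.2 (Flt1, a VEGF receptor, rose). Of 4 tested endothelial and mural genes only Flt1 passed, while Cldn5 (0.12), Pdgfrb (0.57) and Cdh5 (-0.06) did not. Oligodendrocyte markers held 38.6 to 40.3 in WT and 48.9 to 51.7 in GrnKO libraries, most of it at Mbp, and of 4 tested Mbp rose and Mog fell, with a list median of -0.37. Mbp did not pass without GrnKO replicate 2 (limma adjusted p 0.0645). Neuronal markers held 10.4 to 12.9 and 7.18 to 8.51, astrocyte markers 60.3 to 61.6 and 56.5 to 57.3 (most of it at Slc1a3, with a list median of 0.35 and 0 of 4 past the test), and markers of border macrophages and monocytes 22.3 to 22.4 and 20.6 to 23.2. The neuronal Syt1 (-0.99, limma adjusted p 0.0217) and the monocyte receptor Ccr2 (-0.53, limma adjusted p 0.0439) fell, and neither passed with the authors' scaling or without either GrnKO library. Of 6 tested border macrophage and monocyte genes, F13a1 leaned higher without overlap (0.60, limma adjusted p 0.0535). With the authors' scaling F13a1 alone of these passed (0.82, limma adjusted p 0.0158). No listed marker present in the table was at 0 in all libraries. The part of these markers in the results below was not tested, and in bulk chromatin fewer cells of a type and a lower level per cell cannot be told apart.

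The promoters of Tgfbr2, Nrros and Tgfbr1 are shown as examples with and without the motifs searched for, from genes that held regions past the test, and a region of the table covered each window whole. Each run holds the 250 bases before the annotated start site, 5′ to 3′ on the gene's strand, from RefSeq on GRCm38.p6 (the assembly called mm10). Capitals mark the SMAD box CAGAC and the PU.1 core GAGGAA.
Tgfbr2, chr9:116175364-116175613, minus strand: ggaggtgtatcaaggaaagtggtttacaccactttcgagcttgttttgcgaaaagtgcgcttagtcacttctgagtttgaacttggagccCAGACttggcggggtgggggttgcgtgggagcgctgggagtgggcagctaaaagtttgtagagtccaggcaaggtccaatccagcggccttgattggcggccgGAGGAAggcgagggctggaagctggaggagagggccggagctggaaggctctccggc
Nrros, chr16:32165595-32165844, minus strand: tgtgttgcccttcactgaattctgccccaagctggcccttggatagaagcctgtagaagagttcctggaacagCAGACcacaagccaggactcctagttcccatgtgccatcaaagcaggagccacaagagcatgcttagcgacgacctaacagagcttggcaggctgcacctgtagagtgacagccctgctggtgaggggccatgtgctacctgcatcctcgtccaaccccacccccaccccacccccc
Tgfbr1, chr4:47352972-47353221, plus strand: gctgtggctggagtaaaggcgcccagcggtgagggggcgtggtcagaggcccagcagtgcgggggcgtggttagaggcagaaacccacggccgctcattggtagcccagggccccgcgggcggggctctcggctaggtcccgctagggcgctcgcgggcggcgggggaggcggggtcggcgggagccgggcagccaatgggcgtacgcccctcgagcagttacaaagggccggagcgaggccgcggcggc

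On both strands these windows were searched for CAGAC, the palindromic core TCTAGA of paired SMAD boxes, GAGGAA, the E-box CACGTG and the AP-1 motif TGANTCA. The Tgfbr2 window held 1 CAGAC, 160 bases before the start, and 1 GAGGAA, 57 bases before it. The Nrros window held 1 CAGAC, 177 bases before the start. None of the 5 motifs lay in the Tgfbr1 window, which was richer in G and C (74.8%) than the Tgfbr2 and Nrros windows (58.4% each). Another Tgfbr1 window of the table (chr4:47385966-47386215), which no region covered whole, held 1 CAGAC and 1 GAGGAA, 203 and 95 bases before that start. Of 32851 windows of the same length over all genes, 42.2% held CAGAC, 23.3% GAGGAA, 6.75% TGANTCA, 6.02% CACGTG and 5.69% TCTAGA. Matches are descriptions of letters, and 6 of the 10 genes had a window in the table.

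Across the 10 genes, H3K27ac differed between genotypes at 16 single regions, and no gene's total passed the test. Of 365 regions, 26 lay within 1000 bp of the start site (called promoter here) and 339 farther away (distal). By annotation 261 lay in the body of the named gene, 14 in another gene and 90 in no gene. A filter on low values left 316 for testing, and the 49 left out averaged at most 7.74 scaled tags. Of the 316, 12 rose and 4 fell in GrnKO, 5.06% against a background of 9.67% of all 80835 tested regions. By direction the shares were 3.80% against a background of 6.81% for regions that rose and 1.27% against 2.86% for those that fell, so both shares were below the background, a difference that was not tested. The 16 lay in 5 genes (Tgfbr2 6, Tgfbr1 4, Smad3 3, Smad7 2, Nrros 1), 15 of them were distal (as were 339 of the 365), 8 changed by at least 1 on the log2 scale, and 12 did not overlap one another.

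WT and GrnKO values did not overlap at 156 of the 316 regions (49.4%, with 65 above and 91 below WT), beside 52.7% of all tested regions (25.7% below, the rest above). The median change of the member regions was -0.07, beside -0.00084 over all tested regions. Left at the authors' scaling, the median over all tested regions moved to 0.22. There 11 member regions rose and 1 fell (91.7% of calls upward, against 75% with TMM), beside 8.56% of all tested regions called, 8.15% higher and 0.412% lower. All 12 were among the 16. The number called also depended on single libraries: 3 without GrnKO replicate 1, 2 without GrnKO replicate 2, 31 without WT replicate 1 and 33 without WT replicate 2, beside 1270, 1803, 12632 and 14108 of all 80835 tested regions. With no filter on low values 8 of the 16 still passed, 7 higher and 1 lower. Those lost were all Smad3 and Smad7 calls, the Tgfbr1 region 34.2 kb upstream and the Tgfbr2 regions at 36.7 and 41.6 kb.

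**Figure D1:**
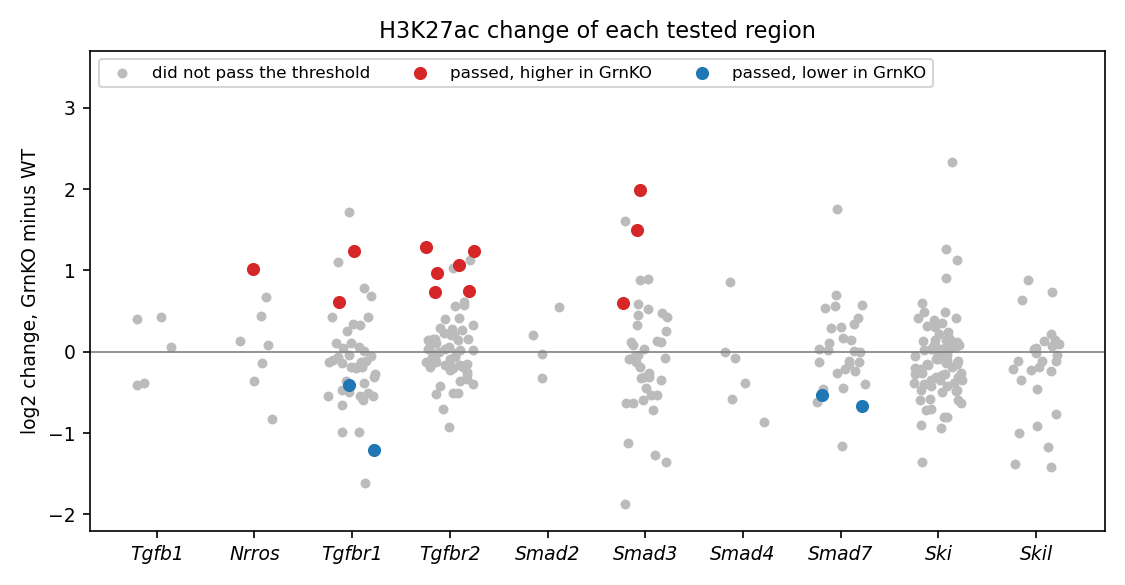
Change in H3K27ac (log2, GrnKO minus WT) of each of the 316 tested regions, by assigned gene. Red points are the 12 regions that passed with higher values in GrnKO and blue points the 4 that passed with lower values. Most regions of every gene lie around 0, and 6 of the red points belong to Tgfbr2.

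Summed over all regions of a gene, 0 of the 10 members passed the test by limma, beside a background of 14.4% of 15389 gene sums (8.64% higher and 5.78% lower), and 1 (Nrros) had an unadjusted p under 0.05. The sums spanned a wide range of levels. Tgfbr2 and Tgfbr1 held 9275 ± 1195 and 9090 ± 454 scaled tags in WT (mean ± SD, n = 2), followed by Ski (7900 ± 35.9), Smad7 (2985 ± 43.8), Smad3 (2655 ± 456) and Skil (2587 ± 282). Tgfb1 held 985 ± 60.4, Nrros 663 ± 97.9, Smad2 199 ± 14.3 and Smad4 68.7 ± 2.80. Within this order, Tgfbr2 and Tgfbr1 differed by less than their spread, as did Smad7 and Smad3, and Smad3 and Skil.

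A sum grows with the number of regions assigned, so the level per region was set beside it. That level in WT was 197 scaled tags for Tgfb1 over 5 regions, 165 for Tgfbr1 over 55, 136 for Tgfbr2 over 68 and 90.8 for Ski over 87. Skil followed with 86.2 (30 regions), Smad7 with 74.6 (40), Nrros with 73.7 (9) and Smad3 with 59.0 (45). Smad2 (12.4 over 16 regions) and Smad4 (6.87 over 10) were far lower. In this order the WT libraries of Ski and Skil overlapped, as did those of Smad7 and Nrros, and of Nrros and Smad3.

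By TMM, 7 sums were lower and 3 higher in GrnKO, and all 10 were higher by the authors' scaling, under which the median of all gene sums moved from -0.04 to 0.18. Relative to that median 5 members were lower. With that scaling 0 members passed, beside 11.7% of gene sums (10.6% higher and 1.08% lower). Sums did not overlap between genotypes for 5 members, beside 54.7% of all gene sums (25.5% above and 29.3% below): Tgfbr1, Smad4, Smad7 and Ski were below WT and Nrros above.

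**Figure D2:**
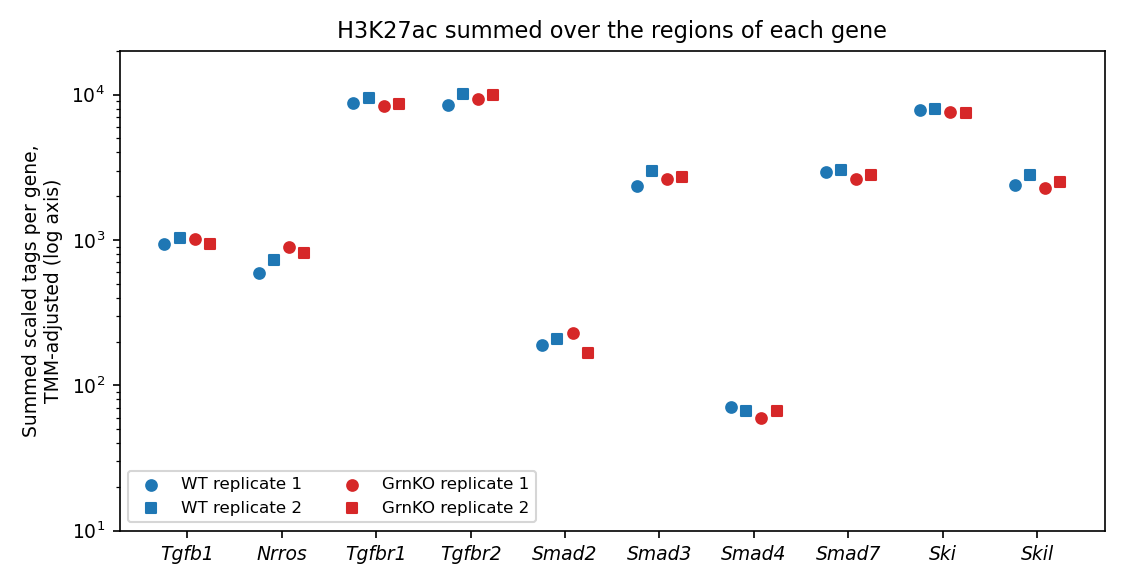
H3K27ac summed over the regions of each gene (scaled tags, TMM-adjusted, log axis) in the 2 WT libraries (blue) and the 2 GrnKO libraries (red), each point being 1 library. For every gene the 4 points lie close together, and the genes themselves range from Smad4 (59.4 to 70.7) to Tgfbr2 (8430 to 10120).

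On the ligand side, the summed acetylation of Tgfb1 did not pass the test. Tgfb1 encodes the ligand made by microglia. Its sum was 943 and 1028 in WT against 1009 and 943 in GrnKO, a change of -0.01 (SE 0.11, 95% interval -0.25 to 0.22, limma adjusted p 0.957). Its highest promoter region (chr7:25686945-25687745) held 309 and 312 in WT and 228 and 246 in GrnKO, without overlap, a change of -0.39 (SE 0.15, limma adjusted p 0.108). Its highest distal region (chr7:25688482-25689282) held 168 and 224 in WT and 276 and 246 in GrnKO (0.43, limma adjusted p 0.136). Without WT replicate 2 that region passed (0.63, limma adjusted p 0.00626), and without WT replicate 1 its change was 0.22. The promoter and distal sums thus leaned in opposite directions, -0.40 and 0.28, and their difference of 0.68 (SE 0.26) did not pass over all genes (limma adjusted p 0.396).

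Nrros encodes the leucine-rich repeat protein that tethers latent TGF-beta to the microglial surface. Its sum was 594 and 732 in WT and 900 and 806 in GrnKO, so both GrnKO libraries stood above both WT libraries. In the authors' scaling the inputs over the same regions held 0 and 5.88 in WT and 42.0 and 71.4 in GrnKO, also higher in GrnKO without overlap. The part of the inputs in the change was not tested. The change of the H3K27ac sum, 0.37 (SE 0.13, 95% interval 0.08 to 0.65), had a limma adjusted p of 0.0813. With DESeq2 (adjusted p 0.0494) and without WT replicate 2 (0.52, limma adjusted p 0.000716) it passed, and without WT replicate 1 it was 0.22 (limma adjusted p 0.243). The region that did pass by limma lies 5.5 kb upstream of the start, between genes (chr16:32170723-32171523). It held 63.7 and 75.4 scaled tags in WT and 149 and 135 in GrnKO, a rise of 1.02 (SE 0.22, limma adjusted p 0.00619). It also passed with the authors' scaling, and did not pass without either GrnKO library (limma adjusted p 0.197 and 0.091).

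The Nrros region over the promoter printed above (chr16:32165134-32165934) had inputs of 0 and 0 in WT and 6.24 and 44.9 in GrnKO, in the authors' scaling. Its H3K27ac libraries held 186 and 297 in WT against 320 and 317 in GrnKO. The groups did not overlap, WT replicate 1 was the lowest, and the change of 0.44 (SE 0.18) had a limma adjusted p of 0.15. It passed without WT replicate 2 (0.77, limma adjusted p 0.000348), and without WT replicate 1 its change was 0.10. Its highest distal region (chr16:32164130-32164930) held 184 and 188 in WT and 219 and 177 in GrnKO, with overlap. The upstream region was the only call in Nrros.

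Of the receptors, Tgfbr1, the kinase that phosphorylates the Smads, changed in both directions at separate sites. Its sum was 8769 and 9411 in WT and 8342 and 8574 in GrnKO (-0.10, SE 0.06, 95% interval -0.24 to 0.03, limma adjusted p 0.334), and passed without WT replicate 1 (-0.15, limma adjusted p 0.0490). Of 46 tested regions 2 rose and 2 fell, beside 6.81% higher and 2.86% lower over all tested regions.

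Both regions that rose lie upstream, within the annotated collagen gene Col15a1, to which 9 of the regions assigned to Tgfbr1 belong by position. The region 59.2 kb upstream (chr4:47293581-47294381, intron 28 of Col15a1) held 44.9 and 26.4 in WT and 85.2 and 79.9 in GrnKO, a rise of 1.23 (SE 0.31, limma adjusted p 0.0149). The region 40.4 kb upstream (chr4:47312440-47313240, over the end of Col15a1) held 214 and 237 in WT and 344 and 345 in GrnKO, a rise of 0.61 (SE 0.15, limma adjusted p 0.0124). Which of the neighbouring genes these regions serve was not tested, since the name is that of the nearest start site.

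The regions that fell lie closer to Tgfbr1. At 34.2 kb upstream, between the genes (chr4:47318624-47319424), the level was 733 and 707 in WT and 530.2 and 553 in GrnKO, a fall of 0.41 on the log2 scale (SE 0.11, limma adjusted p 0.0231). This was the highest of the called regions, and it did not pass with the authors' scaling (-0.18, limma adjusted p 0.771). In intron 1, 2.6 kb after the start (chr4:47355408-47356208), the level was 106 and 73.8 in WT and 36.0 and 39.5 in GrnKO, a change of -1.21 (SE 0.28, limma adjusted p 0.0107), which passed with both scalings. All 4 Tgfbr1 regions lost the call without either GrnKO library.

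No promoter region of Tgfbr1 passed. Its highest promoter region (chr4:47351837-47352637) held 612 and 623 in WT and 576 and 565 in GrnKO (-0.11, limma adjusted p 0.586), and its highest distal region (chr4:47313774-47314574) held 694 and 678 against 653 and 678 (-0.04, limma adjusted p 0.851). The region over the printed window (chr4:47352758-47353558) held 243 and 214 in WT and 202 and 217 in GrnKO, a change of -0.12.

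Tgfbr2 encodes the receptor that binds the ligand first, and it held the region with the smallest adjusted p of the 10 genes. Its sum did not pass the test: 8430 and 10120 in WT and 9320 and 9978 in GrnKO (0.06, SE 0.08, 95% interval -0.11 to 0.24, limma adjusted p 0.688), with WT replicate 1 the lowest library. Without WT replicate 1 the change was -0.07, and without WT replicate 2 it was 0.20 and passed (limma adjusted p 0.00672). Of its 65 tested regions 6 rose and 0 fell, beside 6.81% higher and 2.86% lower over all tested regions. All 6 lie in intron 1 within 8382 bp (chr9:116133338-116141720).

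The strongest of them, 38.4 kb after the start (chr9:116136588-116137388), held 129 and 115 scaled tags in WT and 316 and 283 in GrnKO, a rise of 1.29 (SE 0.17, limma adjusted p 0.000109). The next, at 39.7 kb (chr9:116135299-116136099), held 83.2 and 68.6 in WT and 173 and 187 in GrnKO, a rise of 1.24 (SE 0.21, limma adjusted p 0.000814). At 37.5 kb (chr9:116137467-116138267) the level was 86.7 and 113 against 199 and 218, a rise of 1.06 (SE 0.20, limma adjusted p 0.00196). In these 3 regions every GrnKO library stood well above every WT library. The regions at 39.7 and 38.4 kb passed without any single library, and that at 37.5 kb failed only without GrnKO replicate 2 (limma adjusted p 0.0815).

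Weaker rises bordered them. The region 34.0 kb after the start (chr9:116140920-116141720) held 53.1 and 60.2 in WT and 120.3 and 103 in GrnKO (0.96, SE 0.24, limma adjusted p 0.0159), and did not pass without either GrnKO library. That at 41.6 kb (chr9:116133338-116134138) held 84.4 and 113 against 153 and 173 (0.73, limma adjusted p 0.0337), and that at 36.7 kb (chr9:116138242-116139042) held 104 and 189 against 216 and 256 (0.74, SE 0.23, limma adjusted p 0.0446). Both of the last were lost without WT replicate 1 (limma adjusted p 0.0697 and 0.232) and without either GrnKO library, and were named after their values were seen. The 6 Tgfbr2 regions also passed with the authors' scaling, while that at 36.7 kb did not with DESeq2 (adjusted p 0.0720) or edgeR (adjusted p 0.0856).

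The stretch that these regions bound holds 8 regions of the table, 6 of them not overlapping one another. All 8 were higher in GrnKO with no overlap between groups, by 0.14 to 1.29. Summed over the 8, the stretch held 916 and 1044 scaled tags in WT and 1601 and 1718 in GrnKO, a ratio of 1.69, given as a description because its bounds were set by the called regions. It made up 10.6% of the gene's sum in WT and 17.2% in GrnKO. The inputs, in the authors' scaling, held 18.4 and 67.4 in WT and 31.6 and 52.0 in GrnKO over the same stretch, with overlap.

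Outside the stretch the rest of Tgfbr2 held 8295 ± 1104 scaled tags in WT and 7990 ± 383 in GrnKO (mean ± SD, n = 2), and of 57 tested regions 25 were higher, with changes from -0.93 to 1.12 and a median of -0.07. Without overlap, 10 of these 57 regions stood above WT and 15 below. The highest promoter region of Tgfbr2 (chr9:116174450-116175250) held 497 and 541 in WT and 437 and 546 in GrnKO (-0.09, limma adjusted p 0.752). The highest distal region, 52.6 kb after the start in intron 3 (chr9:116122344-116123144), held 368 and 506 against 406 and 383 (-0.13, limma adjusted p 0.658), and passed as lower without WT replicate 1 (-0.36, limma adjusted p 0.0479). The rise was thus seen in part of intron 1 while the promoter and the strongest distal site overlapped between genotypes.

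**Figure D3:**
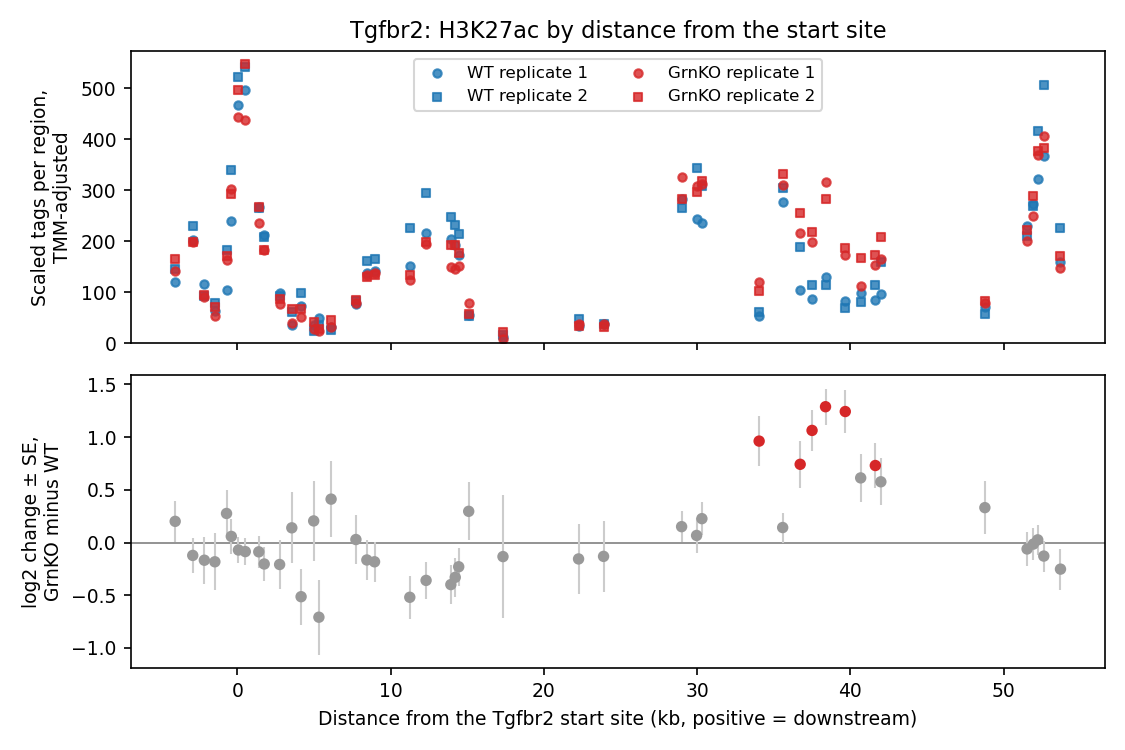
H3K27ac along Tgfbr2 for the 46 of its 68 regions up to 60 kb after the start site, including those upstream: scaled tags per region in each library (upper panel) and the change with its SE (lower panel, red points passed the test). The 6 red points lie between 34.0 and 41.6 kb, with regions nearer the start around or below 0.

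Among the signal carriers, Smad3 changed at distal sites and Smad2 and Smad4 gave little signal. Smad3 encodes a Smad that binds DNA directly. Its sum was 2332 and 2978 in WT and 2612 and 2724 in GrnKO, with overlap (0.02, SE 0.11, 95% interval -0.21 to 0.25, limma adjusted p 0.942). Of 40 tested regions 3 rose and 0 fell, beside 6.81% higher and 2.86% lower over all tested regions.

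The highest distal region of Smad3, 52.0 kb after the start in intron 1 (chr9:63705571-63706371), held 187 and 239 in WT and 296 and 344 in GrnKO, a rise of 0.59 (SE 0.16, limma adjusted p 0.0271). It was just above the threshold without WT replicate 1 (limma adjusted p 0.0526) and with the authors' scaling (limma adjusted p 0.0609). The other calls are a pair of overlapping weak regions upstream of the start, which share part of their fragments. At 35.9 kb (chr9:63793475-63794275) the level was 3.51 and 14.4 in WT and 45.6 and 22.4 in GrnKO (1.99, SE 0.59, limma adjusted p 0.0415), and at 36.3 kb (chr9:63793877-63794677) it was 10.9 and 9.95 against 35.4 and 27.5 (1.49, SE 0.46, limma adjusted p 0.0472). Both missed the threshold with DESeq2 (adjusted p 0.0599 and 0.0511), and the first also with edgeR (adjusted p 0.0681) and without WT replicate 1 (1.10, limma adjusted p 0.0812). All 3 Smad3 calls were lost without either GrnKO library. The Smad3 promoter region (chr9:63757825-63758625) leaned the other way, with 100.4 and 142 in WT and 90.3 and 101 in GrnKO, and did not pass (-0.32, limma adjusted p 0.423).

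Smad2, the other Smad phosphorylated by the receptor, held 189 and 209 in WT and 229 and 166 in GrnKO in sum (-0.03, SE 0.20, 95% interval -0.46 to 0.41, limma adjusted p 0.951). Only 4 of its 16 regions passed the filter. Its highest promoter region (chr18:76241470-76242270) held 60.2 and 80.6 in WT against 85.2 and 54.2 in GrnKO. The GrnKO libraries enclosed the WT values.

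Smad4, the shared partner of the phosphorylated Smads, had the lowest sum: 70.7 and 66.8 in WT and 59.4 and 66.2 in GrnKO (-0.13, SE 0.28, 95% interval -0.73 to 0.47, limma adjusted p 0.825). Its highest promoter region (chr18:73702711-73703511) held 18.8 and 24.9 against 21.2 and 21.9 (-0.00, limma adjusted p 0.999). In the authors' scaling the inputs held 0 and 48.7 in WT and 35.4 and 34.7 in GrnKO over the same regions, against 58.4 to 71.6 in the H3K27ac libraries. In 3 of the 4 inputs the background was thus a large share of the signal, and the wide interval leaves changes of that size undetectable at this depth.

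Smad7, which binds the receptors and blocks Smad phosphorylation and is itself induced by the pathway, held the only promoter region that passed. Its sum was 2954 and 3016 in WT and 2616 and 2809 in GrnKO, below WT without overlap, and did not pass (-0.14, SE 0.08, 95% interval -0.31 to 0.04, limma adjusted p 0.308). The region 0.5 kb after the start (chr18:75367463-75368263), held 397 and 386 in WT and 251 and 291 in GrnKO, a fall of 0.53 on the log2 scale (SE 0.14, limma adjusted p 0.0223). A distal region 31.6 kb after the start, between genes (chr18:75398602-75399402), held 198 and 244 in WT and 117 and 163 in GrnKO, a fall of 0.67 (SE 0.20, limma adjusted p 0.0386). Neither passed with the authors' scaling (-0.31 and -0.44, limma adjusted p 0.569 and 0.406) or without either GrnKO library, and the distal one was also lost without WT replicate 2 (limma adjusted p 0.075) and with edgeR (adjusted p 0.0518).

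The highest Smad7 promoter region (chr18:75366902-75367702) held 432 and 409 in WT and 355 and 346 in GrnKO (-0.26, limma adjusted p 0.224). All its promoter regions together held 829 and 795 against 606 and 637, again without overlap (-0.39, limma adjusted p 0.0661), beside promoter sums of -0.40 for Tgfb1 and -0.38 for Smad3, which did not pass either. The highest distal region (chr18:75368323-75369123) held 222 and 220 in WT and 229.6 and 171 in GrnKO, with overlap.

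Ski and Skil encode related repressors that bind the Smad complex and silence its targets, and no region of either passed the test. Ski, with the most regions of the 10 genes, held 7875 and 7925 in WT and 7612 and 7425 in GrnKO (-0.07, SE 0.06, 95% interval -0.21 to 0.06, limma adjusted p 0.518). The groups did not overlap, but they lay close. Its 85 tested regions changed by -1.35 to 2.33 with a median of -0.09, and 36 were higher in GrnKO. The Ski promoter region (chr4:155221236-155222036) held 323 and 335 against 353 and 343 (0.08, limma adjusted p 0.786), and the highest distal region, 13.3 kb upstream (chr4:155235389-155236189), held 419 and 470.2 against 399 and 435 (-0.09).

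Skil held 2387 and 2786 in WT and 2268 and 2500 in GrnKO (-0.12, SE 0.10, 95% interval -0.32 to 0.09, limma adjusted p 0.500), with overlap. Its 27 tested regions changed by -1.42 to 0.88. The highest promoter region (chr3:31095394-31096194) held 577 and 521 in WT and 450 and 512 in GrnKO (-0.19, limma adjusted p 0.369), and the highest distal one (chr3:31093375-31094175) held 447 and 584 against 430.0 and 519 (-0.11).

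**Figure D4:**
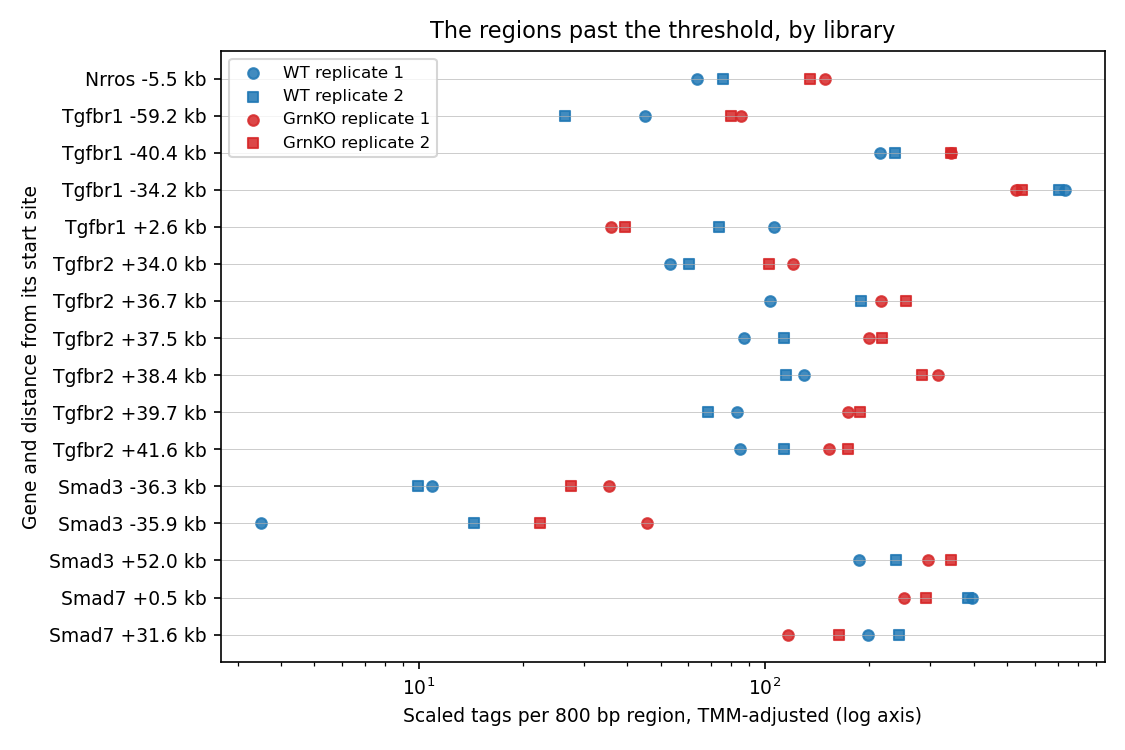
The 16 regions that passed the test, named by gene and distance from its start site, with the scaled tags (TMM-adjusted, log axis) of each library as 1 point. In every row the WT libraries (blue) and GrnKO libraries (red) lie apart, and the overlapping Smad3 pair upstream sits far to the left at 3.51 to 45.6 scaled tags.

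Whether distal and promoter regions of a gene changed by different amounts was tested on the difference of their log2 sums, in which library scaling cancels. No member passed, beside 2 of 7338 genes (0.0273%) in all, and 962 genes had an unadjusted p under 0.05. Tgfb1 had the largest difference given above. Smad3 (0.43, limma adjusted p 0.482) and Smad7 (0.33, limma adjusted p 0.526) leaned the same way, with distal regions higher relative to the promoter, while Smad2 (-0.67, SE 0.53, limma adjusted p 0.659) and Smad4 (-0.18, limma adjusted p 0.847) leaned the other way. Nrros gave -0.10 (limma adjusted p 0.912).

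Beyond the members, 82 other gene symbols of the pathway were listed in 7 groups, and 71 could be tested on gene sums. Ctgf was also listed under its newer symbol Ccn2, which had no region. Of the 71 tested genes 9 rose and 15 fell, 33.8% called beside the background of 14.4%, with a median change of -0.13. The lists were chosen with earlier results of these data known, and the difference from the background was not tested. With the authors' scaling 7 rose and 2 fell, 12.7% beside 11.7% of all gene sums. Of 19 genes named below, 9 passed with the authors' scaling too, 8 passed without any single library, and 6 did both: Gdf15, Tgfb3, Bambi, Ctgf, Eng and Trim33. Summed only over regions within 100 kb of the start, 17 of the 19 passed, without Bambi and Trim33. Over promoter regions alone 6 of 16 with a value passed (Gdf15, Eng, Sall1, Siglech, Tab2 and Tgif1), and over distal regions 16 of 19, without Acvr2b, Siglech and Thbs1.

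Of 8 tested ligands 3 rose and 0 fell (median 0.17). Gdf15, a stress-induced member of the ligand family, held 295 and 311 scaled tags in WT and 1194 and 1043 in GrnKO, a rise of 1.88 (SE 0.13, limma adjusted p 2.37e-06). Tgfb3, another TGF-beta isoform, held 228 and 236 against 512 and 539 (1.17, limma adjusted p 0.000169), and Bmp2, a bone morphogenetic protein, 160 and 117 against 266 and 232 (0.86, limma adjusted p 0.0129). In all 3 genes both GrnKO libraries stood above both WT libraries, while the sums of Tgfb1 overlapped. Bmp2 lost the call without either GrnKO library. Of 9 tested genes of latency and activation, Furin, the protease that cleaves the precursor, rose by 0.34 and Thbs1, an activator of the latent form, fell by 0.53. Neither passed with the authors' scaling or without either GrnKO library, and Thbs1 also not without WT replicate 2. The promoter regions of Furin alone gave -0.03.

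Of 10 other receptors 1 rose and 4 fell (median -0.28), and with the authors' scaling 1 rose and 1 fell. Bambi, a decoy receptor without a kinase domain, held 269 and 143 in WT and 640 and 536 in GrnKO, a rise of 1.57 (SE 0.23, limma adjusted p 0.000603). Within 100 kb of its start the change was 1.09 and did not pass (limma adjusted p 0.197). Eng, a co-receptor known from endothelium, held 325 and 335 against 124 and 113, a change of -1.47 (SE 0.18, limma adjusted p 0.000139). Acvrl1 (-0.55) and Acvr2b (-0.49) fell, did not pass with the authors' scaling, and lost the call without GrnKO replicate 1. The 3 other Smads tested included none that passed (median -0.13).

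Of 19 regulators 2 rose and 5 fell (median -0.11), and with the authors' scaling 1 rose and 1 fell. Trim33, a ubiquitin ligase that binds Smads, held 945 and 1036 in WT and 507 and 540 in GrnKO (-0.92, SE 0.12, limma adjusted p 0.000228). Within 100 kb of its start the change was -0.27 and did not pass (limma adjusted p 0.415). Tab2 (-0.70) and Map3k7 (-0.57), which act together in the Smad-independent arm, fell and did not pass with the authors' scaling, and Map3k7 lost the call without GrnKO replicate 1 and leaned the other way over its promoter regions alone (0.07). Dab2, an adaptor of receptor trafficking, rose by 0.59 and Tgif1, a Smad corepressor, by 0.34. Without GrnKO replicate 1 neither passed, and with the authors' scaling Dab2 passed and Tgif1 did not (limma adjusted p 0.219).

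Of 11 tested early targets of TGF-beta 2 rose and 0 fell (median 0.04). Ctgf, a matricellular growth factor, held 563 and 501 in WT and 1449 and 1374 in GrnKO, a rise of 1.41 (SE 0.11, limma adjusted p 8.49e-06), and Id2, an inhibitor of basic helix-loop-helix factors, rose by 0.64 (limma adjusted p 0.00428), without GrnKO replicate 1 no longer past the threshold. Of 12 microglial genes known to depend on TGF-beta 0 rose and 5 fell with TMM (median -0.21), and 0 passed with the authors' scaling (median 0.01). Sall1, a microglial transcription factor, held 10108 and 12087 in WT and 7089 and 8394 in GrnKO (-0.52, SE 0.09, limma adjusted p 0.00182). Siglech (-0.37) and Slc2a5 (-0.58) also fell with TMM, and lost the call without either GrnKO library. These genes share 5 members with the 8 microglial markers, of which 5 fell with TMM as given above.

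**Figure D5:**
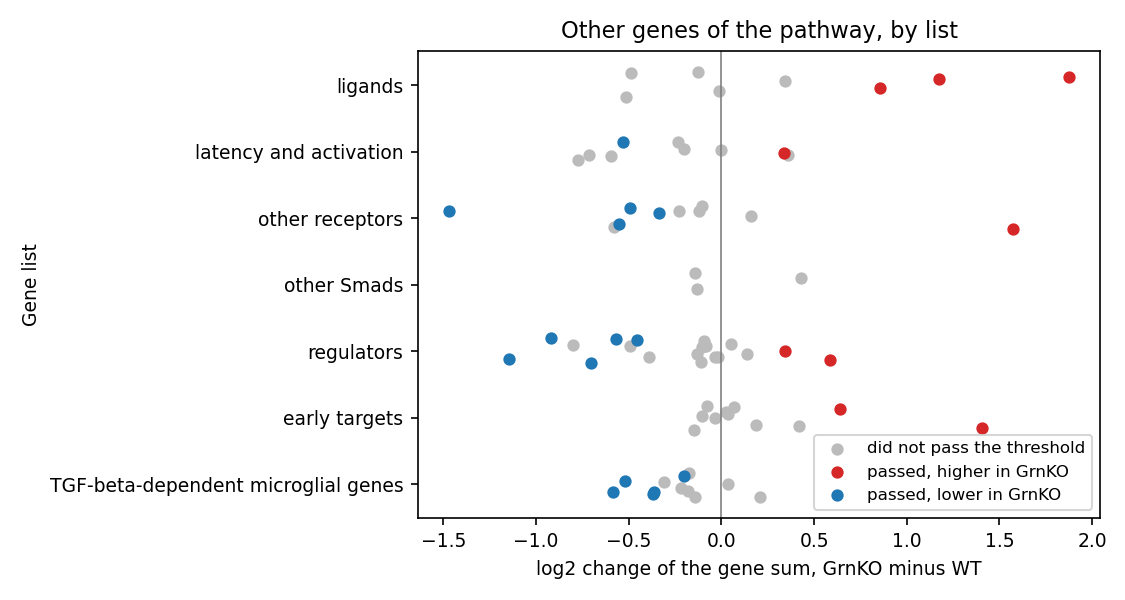
Change of the H3K27ac gene sum (log2, GrnKO minus WT) for each tested pathway gene outside the 10 members, by list. Red points passed with higher values in GrnKO and blue points with lower values, and grey points, which lie in every list, did not pass. Among the points that passed, those of ligands and early targets are all red. Those of the TGF-beta-dependent microglial genes are all blue.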

How the data were processed

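Per the submitters' processing notes, Bowtie2, HOMER and DESeq2 were used on build mm10. Their roles and versions are not given in the sources used here. The deposited table holds signal, tags per region of 800 bp scaled by the authors to 10000000 per library, per the file headers. Every value was a whole number of read ends at 2 per tag (100% within 0.05). Depth follows from the header totals: 3 tags equal 1.50 to 1.94 scaled tags in the H3K27ac libraries, for counting error only. No per-sample column was left out.

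Values were adjusted by TMM factors (0.826, 1.04, 1.08 and 1.08) and log2(value + 1) was tested with limma 3.58.1 (trend, Benjamini-Hochberg at 0.05) across all regions and all gene sums, after edgeR 4.0.16's filterByExpr (minimum 10 recovered tags). edgeR and DESeq2 1.42.0 were alternatives, beside other scalings, filters, pseudocounts and left-out libraries. The fits were tested on simulated data. The members and lists were chosen with earlier results of these data known. Named were all 10 members with their highest promoter and distal regions and at most 4 called regions per direction, and up to 3 called genes per direction of each list.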

Additional observations from a re-analysis of the deposited data

How the results depend on the processing

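With 2 libraries per genotype, counts of calls depended on single libraries, and where 1 was left out the lone library of that genotype was assumed to vary like the other pair. Calls over all regions ranged from 1270 to 14108 without 1 library each, against 7815, and calls over all gene sums from 821 to 3722, against 2218. GrnKO replicate 1 gave the lowest counts. Of 1046 alternative values, 862 kept direction and side of the threshold or, for counts, stayed within 1.5 times, 107 lost a call, 9 gained one, 52 changed sign and 16 were counts that moved by more than 1.5 times. Over all regions the authors' scaling gave 95.2% of calls upward, against 70.4% with TMM, and over gene sums 90.8% against 59.9%. Sums over promoter regions alone gave 580 called genes. The 2 genes whose distal and promoter changes differed became 1 with a pseudocount of 5 and 0 with no filter, a promoter width of 3000 bp or any library left out. The cause of these moves was not tested. Regions averaging a few tags, such as most of Smad2 and Smad4, limit what could be detected.

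Deviations of same-numbered libraries hardly correlated between genotypes (0.03 over 80835 regions), which cannot show whether they were processed together. With the replicate number as a block, 26 member regions passed in place of 16, all 16 among them. In all, 11414 regions and 2944 gene sums passed. Nrros passed in sum (limma adjusted p 0.0328) and at its highest promoter region (limma adjusted p 0.0315), and 0 genes differed between distal and promoter regions.

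With the authors' scaling the sign of the gene sum turned for Tgfb1 (0.21), Tgfbr1 (0.12), Smad2 (0.20), Smad4 (0.092), Smad7 (0.085), Ski (0.15) and Skil (0.11), and of the highest regions for Tgfbr1 (0.18 distal, 0.11 promoter), Tgfbr2 (0.10 and 0.14), Smad2 (0.19, promoter), Smad4 (0.21, promoter), Smad7 (0.070, distal), Ski (0.13, distal) and Skil (0.11 and 0.032). With DESeq2 the sums of Tgfb1 and Smad2 were 0.016 and 0.017. Promoter sums alone gave -0.015 for Tgfbr2, 0.094 for Smad2, -0.38 for Smad3, 0.0052 for Ski, -0.033 for Furin and 0.073 for Map3k7, and distal sums 0.28 for Tgfb1. With promoters taken within 3000 bp the distal minus promoter difference was 0.080 for Skil and 0.42 for Nrros. None of these passed the test.

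Without 1 library at a time the sums ranged from -0.076 to 0.051 for Tgfb1, -0.070 to 0.20 for Tgfbr2, -0.26 to 0.20 for Smad2 and -0.16 to 0.20 for Smad3. The highest distal regions ranged from -0.36 to 0.10 (Tgfbr2), -0.21 to 0.62 (Smad2), -0.36 to 0.057 (Smad7), -0.31 to 0.083 (Skil) and -0.073 to 0.23 (Nrros), and the highest promoter regions from -0.25 to 0.075 (Tgfbr2), -0.36 to 0.29 (Smad2) and -0.20 to 0.19 (Smad4). Distal minus promoter ranged from -0.033 to 0.088 for Tgfbr1, -0.52 to 0.17 for Smad4, -0.055 to 0.043 for Skil and -0.39 to 0.19 for Nrros.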
